A study of Mus musculus with 6 samples.

Results

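Retinoid metabolism was followed through 10 genes in mouse skin, taken whole from the back on day 2. The genes were taken by symbol from the deposited count table: the serum and cytosolic carriers Rbp4, Crabp1 and Crabp2, the membrane receptor Stra6, the dehydrogenases Dhrs9, Aldh1a1, Aldh1a2 and Aldh1a3, the hydroxylase Cyp26b1, and Rarres2, the gene of chemerin. These were 10 of the 55487 genes in the table, and all 10 were present and passed the filter on low counts. The rule that chose them names symbols and no measured value, but the choice was made with earlier results of these data known. It named Rarres2 in its wording, beside 9 listed symbols.

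RNA sequencing of polyadenylated RNA compared 3 skin samples labelled control with 3 labelled DPCP. DPCP is diphenylcyclopropenone, a contact sensitizer that is applied to skin to provoke an allergic dermatitis. All 6 samples are labelled mouse skin, and strain, age, sex and genotype are not given in the labels. Treatment of the control skin is not described in the labels. Whether each sample is a separate animal is not given there either, so p-values measure only the spread between these samples, which may be technical.

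Retinol circulates bound to Rbp4, enters cells partly through receptors such as Stra6, and is stored as esters or oxidised to retinaldehyde and then, irreversibly, to retinoic acid. Retinoic acid is bound in the cytosol by the Crabp proteins, binds nuclear receptors that switch genes on or off, and is cleared by Cyp26 enzymes. In skin it governs keratinocyte differentiation, sebaceous glands and the hair cycle.

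RefSeq start sites on GRCm38.p6 had promoter entries for 7 of the 10 genes, Rbp4, Stra6, Crabp1, Dhrs9, Aldh1a1, Aldh1a2 and Cyp26b1. Crabp2, Aldh1a3 and Rarres2 had none. The 250 bases upstream of each start were searched on both strands for TATAAA, for GGGCGG, for TGANTCA, and for retinoic acid receptor half-sites, taken as AGGTCA and its variant AGTTCA, and the same with a leading G, which are GGGTCA and its variant GGTTCA. The motifs and the windows shown were chosen after sequences and values had been seen. The windows below belong to both genes that fell, Rbp4 and Aldh1a1, and to 2 genes that rose, Crabp1 and Dhrs9, so that their upstream sequences can be set side by side. They are written 5′ to 3′ on the strand of the gene, and capitals mark the motif matches.
Rbp4 chr19:38125322-38125571 (minus strand): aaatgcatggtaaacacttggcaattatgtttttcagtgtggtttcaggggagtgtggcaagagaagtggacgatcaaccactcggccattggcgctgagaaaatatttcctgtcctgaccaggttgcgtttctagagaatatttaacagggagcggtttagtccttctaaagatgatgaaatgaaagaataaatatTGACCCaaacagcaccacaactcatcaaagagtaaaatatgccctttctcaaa
Aldh1a1 chr19:20492333-20492582 (plus strand): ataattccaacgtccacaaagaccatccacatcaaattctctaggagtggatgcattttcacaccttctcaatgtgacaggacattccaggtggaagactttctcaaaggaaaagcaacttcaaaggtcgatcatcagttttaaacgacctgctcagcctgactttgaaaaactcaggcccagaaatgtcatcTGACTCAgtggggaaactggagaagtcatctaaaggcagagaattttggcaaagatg
Aldh1a1 chr19:20601718-20601967 (plus strand): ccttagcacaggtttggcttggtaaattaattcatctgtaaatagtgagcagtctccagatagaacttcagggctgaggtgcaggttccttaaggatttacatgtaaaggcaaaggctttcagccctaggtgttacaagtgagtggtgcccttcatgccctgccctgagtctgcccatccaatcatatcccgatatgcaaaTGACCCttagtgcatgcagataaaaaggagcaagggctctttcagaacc
Crabp1 chr9:54764498-54764747 (plus strand): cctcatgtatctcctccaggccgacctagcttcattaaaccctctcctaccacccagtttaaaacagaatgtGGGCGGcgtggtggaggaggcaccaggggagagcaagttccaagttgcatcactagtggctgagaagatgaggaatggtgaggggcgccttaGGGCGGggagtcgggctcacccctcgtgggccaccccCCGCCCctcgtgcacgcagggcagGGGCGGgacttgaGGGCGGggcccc
Dhrs9 chr2:69380212-69380461 (plus strand): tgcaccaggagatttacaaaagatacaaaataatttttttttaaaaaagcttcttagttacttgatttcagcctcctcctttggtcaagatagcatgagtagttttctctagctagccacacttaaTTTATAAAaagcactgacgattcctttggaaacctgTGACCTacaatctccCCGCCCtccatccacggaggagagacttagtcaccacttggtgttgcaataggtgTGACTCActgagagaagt

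The Rbp4 window shown held 1 half-site, read as TGACCC on the strand of the gene, 48 to 53 bases before the start. Rbp4 has another start, whose window, not shown because 124 of its bases are exonic, held no half-site, 1 TATAAA, 2 GGGCGG and 1 TGANTCA. The upstream Aldh1a1 window held TGACTCA at 51 to 57 bases, and the window of its other start, which lies inside the gene and overlaps an annotated exon by 7 bases, held TGACCC at 44 to 49 bases. In the Crabp1 window, 5 matches to GGGCGG lay within 178 bases of the start. The Dhrs9 window held a half-site at 83 to 88 bases and TGACTCA at 12 to 18 bases. It also held a GGGCGG match and an overlapping pair of TATAAA matches. The 17 exonic bases of this window are those nearest the start, and nearly all of TGACTCA lies within them. Half-sites and TGANTCA thus occurred beside genes that fell and beside a gene that rose. Over all 32851 mouse windows of this length, 38.6% held a half-site, 32.7% held GGGCGG, 12.4% held TATAAA and 6.75% held TGANTCA. Half-sites arranged as a direct repeat 1, 2 or 5 bases apart were in 0.164%, 0.174% and 0.0883% of windows. No window of the genes with promoter entries held such a repeat, which says little, since at these rates none would be looked for in so few windows. A match describes letters only and says nothing of a factor.

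Library totals ran from 28346992 to 38846787 counts, and levels are given as CPM, the count scaled to a common library total. Mitochondrial transcripts made up 3.96% to 4.07% of control libraries and 3.41% to 3.49% of DPCP libraries. Keratinocyte and fibroblast markers were detected in every library, as the skin label requires, and no marker gene of the 14 cell type lists was listed at 0 throughout. Markers of several cell types moved with the groups. Summed suprabasal keratinocyte markers stood at 12099 to 17130 CPM in control against 3826 to 4914 CPM under DPCP, and summed neutrophil markers at 17.5 to 24.0 and 452 to 1207 CPM. S100a8 and S100a9 carry most of the DPCP neutrophil sum. The other markers on that list, Csf3r, Cxcr2 and Retnlg, rose from means of 5.3, 6.5 and 1.8 to 102.8, 68.8 and 9.65 CPM. In bulk tissue, fewer cells of a type and less RNA per cell cannot be told apart, and this touches every result that follows.

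Of the 10 retinoid genes, 6 rose and 2 fell in DPCP skin, against a background in which 46.1% of the 18259 genes tested were called, 22.8% higher and 23.3% lower. A call is an adjusted p under 0.05 in edgeR's quasi-likelihood test, with Benjamini-Hochberg adjustment over all genes tested. The genes that rose were Aldh1a3, Crabp1, Crabp2, Rarres2, Dhrs9 and Cyp26b1. Aldh1a1 and Rbp4 fell, and Stra6 and Aldh1a2 were not called. The median log2 fold change was 0.51 for the 10 genes and -0.01 for all genes tested. CPM ranges of the groups did not overlap for 9 of the 10, with DPCP above control for 6 and below for 3. Over all tested genes the ranges did not overlap for 58.1%, with DPCP above for 28.6% and below for 29.4%.

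**Figure D1:**
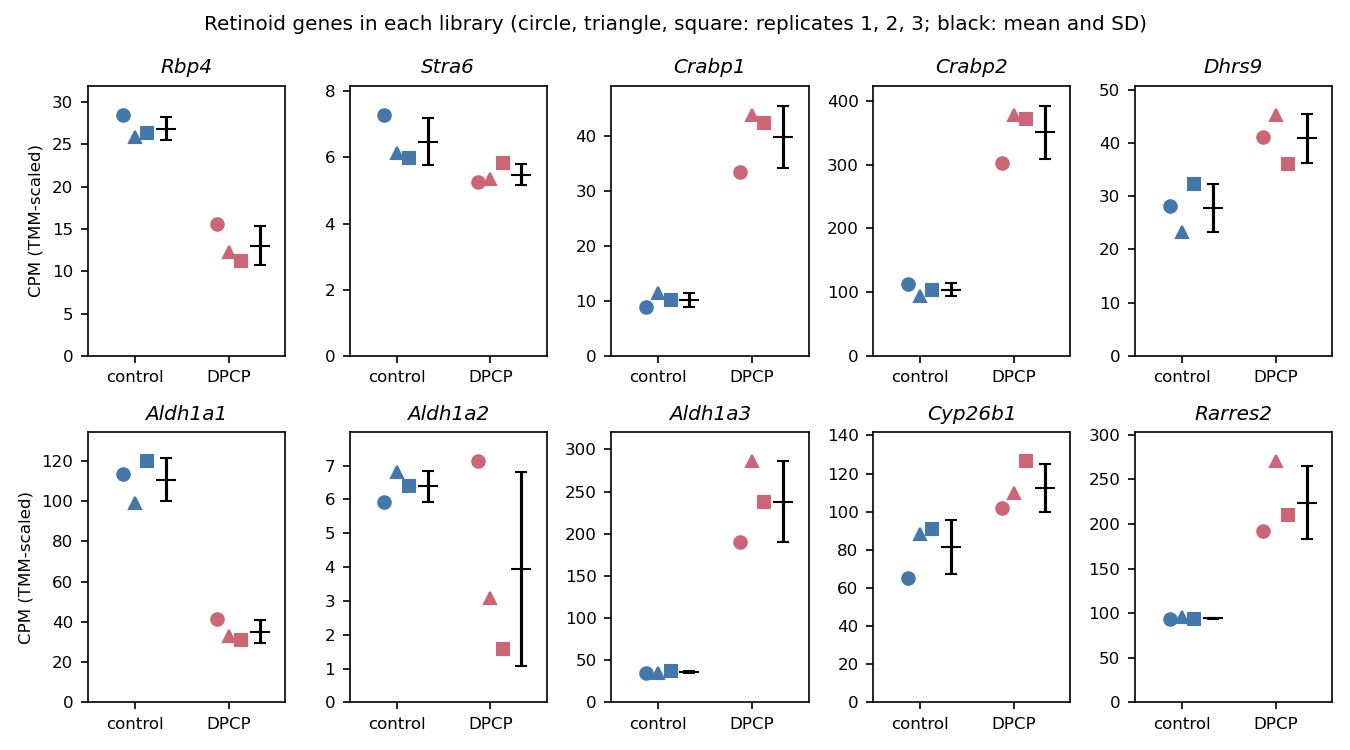
CPM scaled by TMM factors (vertical axes, each from 0) of the 10 retinoid genes in the 3 control and 3 DPCP libraries, with replicates 1, 2 and 3 as circle, triangle and square and the group mean with its SD in black. The DPCP libraries lie apart from control for every gene except Aldh1a2, whose DPCP replicate 1 lies above all controls at 7.12 CPM.

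Carriage and uptake of retinol were represented by Rbp4 and Stra6, as RNA of the skin only, and delivery of retinol was not measured. Rbp4 (ENSMUSG00000024990, chromosome 19, 38116629 to 38125281), the carrier that brings retinol to tissues, was at 28.5, 25.8 and 26.3 CPM in control replicates 1, 2 and 3. Its DPCP libraries were at 15.6, 12.3 and 11.2 CPM. Every DPCP library lay well below every control, and DPCP replicate 1 lay nearest to them. The means were 26.9 ± 1.41 and 13.0 ± 2.29 CPM (SD, n = 3 each). Rbp4 fell by 1.05 ± 0.14 (SE) on the log2 scale, a 2.06-fold lower level (edgeR adjusted p = 4.694e-04).

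Stra6 (ENSMUSG00000032327, chromosome 9, 58063788 to 58153996), the cell surface receptor that takes up retinol from Rbp4, was at 7.28, 6.13 and 5.99 CPM in control and 5.25, 5.36 and 5.83 CPM in DPCP libraries. The groups came close to each other without overlapping. The log2 difference was -0.24 ± 0.15 (edgeR adjusted p = 0.216), with a 95% interval from -0.58 to 0.10, so a fall of the size seen for Rbp4 lies outside the interval while a smaller one lies inside it.

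Adipocytes and hepatocytes are the best known sources of Rbp4. Of 6 adipocyte markers, 1 was higher and 2 were lower, and their summed level ran from 803 to 1048 CPM in control and from 906 to 1082 CPM in DPCP libraries. The marker that was higher, Fabp4, carries much of that sum. The other 5 all had negative log2 values, although 3 of them were not called. They summed to 474 to 628 CPM in control and 332 to 473 CPM in DPCP libraries, ranges that nearly touch. Fabp4 was left out of this sum with its values known. Sebocyte markers, of which 4 of 6 were lower and none higher, summed to 4326 to 6124 CPM in control and 2717 to 3785 CPM in DPCP libraries. Without Scd1, the most abundant of them, the sums overlapped, at 934 to 1362 and 664 to 1118 CPM. The part of either cell type in the Rbp4 difference was not tested.

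Both cytosolic binding proteins of retinoic acid rose. Crabp1 (ENSMUSG00000032291, chromosome 9, 54764748 to 54773110) was at 8.81, 11.4 and 10.2 CPM in control and 33.4, 43.8 and 42.3 CPM in DPCP libraries. No control came near any DPCP library, and DPCP replicate 1 was the lowest of its group. The means were 10.1 ± 1.31 and 39.9 ± 5.61 CPM (SD, n = 3 each), a 3.93-fold rise with a log2 change of 1.97 ± 0.14 (edgeR adjusted p = 2.886e-05).

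Crabp2 (ENSMUSG00000004885, chromosome 3, 87948666 to 87953376), which hands retinoic acid to its nuclear receptors, was at 113.4, 93.5 and 104.0 CPM in control and 303.0, 378.0 and 371.6 CPM in DPCP libraries. The groups were again far apart with DPCP replicate 1 nearest to control. From 103.6 ± 9.95 to 350.9 ± 41.6 CPM (SD, n = 3 each), the rise was 3.39-fold, or 1.76 ± 0.12 on the log2 scale (edgeR adjusted p = 2.292e-05).

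The balance between the pair differed little between the groups. Counted per kilobase of exon (RPKM), Crabp2 made up 88.6%, 83.2% and 86.1% of the pair in control and 84.6%, 84.0% and 84.2% in DPCP libraries. The DPCP shares all lay inside the control range, which control replicate 2 extends downward. The difference of -1.73 percentage points had a two-sided exact permutation p of 0.40, in a design of 3 against 3 that cannot go below 0.10. It was -3.11 points without control replicate 2 (exact permutation p = 0.10) and -0.41 without control replicate 1 (exact permutation p = 0.80). Summed RPKM of the pair went from 91.0 ± 5.90 to 315.1 ± 38.5 (SD, n = 3 each), without overlap.

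Dhrs9 (ENSMUSG00000027068, chromosome 2, 69380445 to 69404533), a short-chain dehydrogenase that oxidises retinol to retinaldehyde, was at 28.1, 23.2 and 32.2 CPM in control and 41.2, 45.3 and 36.2 CPM in DPCP libraries. The groups did not overlap, although control replicate 3 and DPCP replicate 3 were close. The rise was 1.47-fold, from 27.9 ± 4.52 to 40.9 ± 4.58 CPM (SD, n = 3 each). On the log2 scale it was 0.55 ± 0.14 (edgeR adjusted p = 0.0107).

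Of the 3 retinaldehyde dehydrogenases, which carry out the step to retinoic acid, Aldh1a3 rose, Aldh1a1 fell and Aldh1a2 was not called. Aldh1a3 (ENSMUSG00000015134, chromosome 7, 66390890 to 66427517) was at 35.5, 34.6 and 37.0 CPM in control and 190.1, 285.8 and 238.1 CPM in DPCP libraries. Controls lay close together, and every DPCP library stood far above them. The change from 35.7 ± 1.21 to 238.0 ± 47.8 CPM (SD, n = 3 each) was the largest of the 10 genes, 6.67-fold, or 2.74 ± 0.15 on the log2 scale (edgeR adjusted p = 8.293e-06).

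Aldh1a1 (ENSMUSG00000053279, chromosome 19, 20492715 to 20643465) went the other way. It was at 113.3, 99.0 and 119.7 CPM in control and 41.7, 33.1 and 30.9 CPM in DPCP libraries. All DPCP libraries lay below all controls. Aldh1a1 fell by 1.65 ± 0.13 on the log2 scale, a 3.14-fold lower level (edgeR adjusted p = 4.207e-05), from a mean of 110.7 ± 10.6 to 35.2 ± 5.70 CPM (SD).

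Aldh1a2 (ENSMUSG00000013584, chromosome 9, 71215789 to 71296243), the isoform best known from the embryo, was at 5.92, 6.83 and 6.41 CPM in control and 7.12, 3.09 and 1.58 CPM in DPCP libraries. DPCP replicate 1 was the highest of all 6 libraries and DPCP replicates 2 and 3 were the lowest, so the groups overlapped. The log2 difference was -0.70 ± 0.44 (edgeR adjusted p = 0.225; 95% interval -1.70 to 0.31). Without DPCP replicate 1 it was -1.44 with an edgeR adjusted p of 0.00498, so this library alone decides the call.

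Per length, Aldh1a1 was the main isoform of the 3 in control skin and Aldh1a3 in DPCP skin. Aldh1a3 made up 23.1%, 24.5% and 22.8% of the summed RPKM of the 3 genes in control and 78.1%, 88.5% and 88.1% in DPCP libraries. Aldh1a1 made up 69.0%, 65.6% and 69.1% in control and 16.0%, 9.57% and 10.7% in DPCP libraries. The shares of the groups lay far apart for both isoforms.

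For Aldh1a2 the shares were 7.87%, 9.86% and 8.07% in control and 5.96%, 1.95% and 1.19% in DPCP libraries. These shares are of a sum that rose with Aldh1a3, and in DPCP replicate 1 the level of Aldh1a2 itself, 3.15 RPKM, was above the control maximum of 3.01, so its lower share is no measure of a fall. The differences in share of 61.4 percentage points for Aldh1a3 and -55.8 for Aldh1a1 each had a two-sided exact permutation p of 0.10, the smallest that 3 against 3 allows. The summed RPKM of the 3 genes was 33.2, 30.6 and 35.1 in control and 52.8, 70.0 and 58.5 in DPCP libraries. The total was thus higher in every DPCP library, with means of 33.0 ± 2.27 and 60.4 ± 8.76 (SD, n = 3 each).

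**Figure D2:**
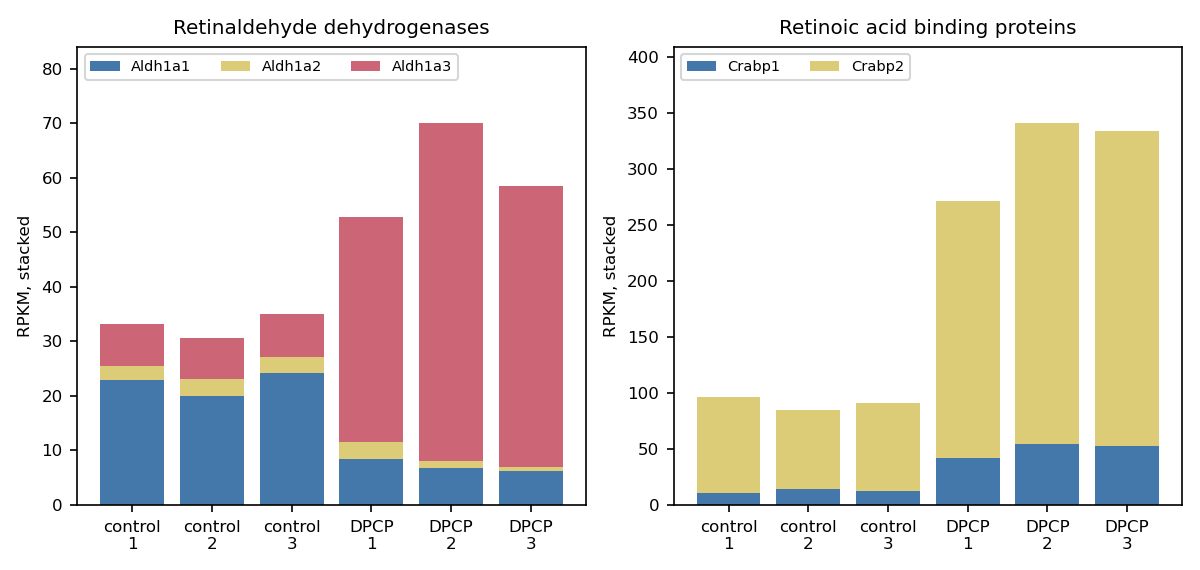
RPKM in each library (vertical axes, stacked bars from 0) of the retinaldehyde dehydrogenases Aldh1a1, Aldh1a2 and Aldh1a3 on the left and of the retinoic acid binding proteins Crabp1 and Crabp2 on the right. Aldh1a3 fills 22.8% to 24.5% of the control bars and 78.1% to 88.5% of the DPCP bars, while the split between the Crabp genes stays at 83.2% to 88.6% Crabp2 in all 6.

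Aldh1a3 and Crabp2 are known in keratinocytes, and keratinocyte markers moved as well. Of 5 basal keratinocyte markers 3 were higher and 1 was lower, and their sum ran from 10664 to 13117 CPM in control and from 24352 to 28092 CPM in DPCP libraries. Most of that difference is Krt14. Without it the other 4 summed to 6065 to 7892 CPM in control and 7865 to 9281 CPM in DPCP libraries, and Krt5 was not called. All 5 suprabasal markers were lower. The part of these shifts in the retinoid genes was not tested.

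Removal of retinoic acid was represented by Cyp26b1 (ENSMUSG00000063415, chromosome 6, 84571414 to 84593908), the hydroxylase that starts its breakdown. It was at 65.2, 88.3 and 90.8 CPM in control and 101.8, 109.6 and 126.4 CPM in DPCP libraries. Control replicate 1 lay below the other controls, and the groups did not overlap. The rise of 1.38-fold, from 81.4 ± 14.1 to 112.6 ± 12.6 CPM (SD, n = 3 each), was the smallest called. Its log2 change was 0.47 ± 0.14 (edgeR adjusted p = 0.0245). The call was lost without control replicate 1, at 0.34 (adjusted p = 0.0538), and without DPCP replicate 3, at 0.38 (adjusted p = 0.0772).

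The sister genes Cyp26a1 and Cyp26c1 were too low to test. Cyp26a1 had 2 counts in control replicate 3 and 0 in the other libraries. Cyp26c1 had 4 counts in control replicate 1, 1 in DPCP replicate 2 and 0 elsewhere. At this depth, 0 counts allow a level of up to 0.0820 to 0.102 CPM, depending on the library, taking 3 counts as the limit and covering counting error only.

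Rarres2 (ENSMUSG00000009281, chromosome 6, 48569696 to 48572789) encodes chemerin, a secreted attractant of immune cells that was first described as a retinoid-responsive gene of skin. It was at 93.7, 95.3 and 93.6 CPM in control and 191.6, 270.1 and 210.0 CPM in DPCP libraries. Controls were nearly level and every DPCP library was higher. The rise from 94.2 ± 0.939 to 223.9 ± 41.05 CPM (SD, n = 3 each) was 2.38-fold, or 1.25 ± 0.13 on the log2 scale (edgeR adjusted p = 1.473e-04).

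Rarres2 shares 892 of its 2656 exon bases (33.6%) with Lrrc61 on the other strand, and the counting did not use strand, so reads from there cannot be assigned. Lrrc61 fell by 1.05 ± 0.14 on the log2 scale, from 12.6 ± 0.701 to 6.06 ± 0.634 CPM (SD, n = 3 each; edgeR adjusted p = 4.532e-04), far below the level of Rarres2. The other 9 retinoid genes share no exon base with another gene. The gene of the chemerin receptor, Cmklr1, had a log2 difference of 0.06 ± 0.09 (edgeR adjusted p = 0.613), with overlapping groups at 36.1 ± 2.27 and 37.6 ± 2.49 CPM. Cmklr1 and Lrrc61 were looked up after values had been seen.

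Ordered by RPKM, the control libraries placed Crabp2 first at a mean of 78.4, then Rarres2 at 35.5, Aldh1a1 at 22.4, Rbp4 at 20.01, Cyp26b1 at 15.2 and Crabp1 at 12.7. Aldh1a3 at 7.73, Dhrs9 at 6.51, Aldh1a2 at 2.82 and Stra6 at 1.11 followed. Aldh1a1 and Rbp4 overlapped in range, as did Cyp26b1 and Crabp1, and Aldh1a3 and Dhrs9, so these neighbours are not ordered beyond their spread. In both groups the RPKM of Rarres2 divides by all 2656 exon bases. Reads in the 892 bases shared with Lrrc61 were left out, so the Rarres2 level is likely understated.

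In DPCP libraries the order by mean RPKM was Crabp2 at 265.4, Rarres2 at 84.3, Aldh1a3 at 51.6, Crabp1 at 49.7, Cyp26b1 at 21.03, Rbp4 at 9.69, Dhrs9 at 9.55, Aldh1a1 at 7.13, Aldh1a2 at 1.74 and Stra6 at 0.940. Aldh1a3 and Crabp1 overlapped, and so did Rbp4 and Dhrs9, and Aldh1a2 and Stra6. Crabp2 and Rarres2 held the first places in both groups. Aldh1a1 went from the third to the eighth place and Aldh1a3 from the seventh to the third.

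**Figure D3:**
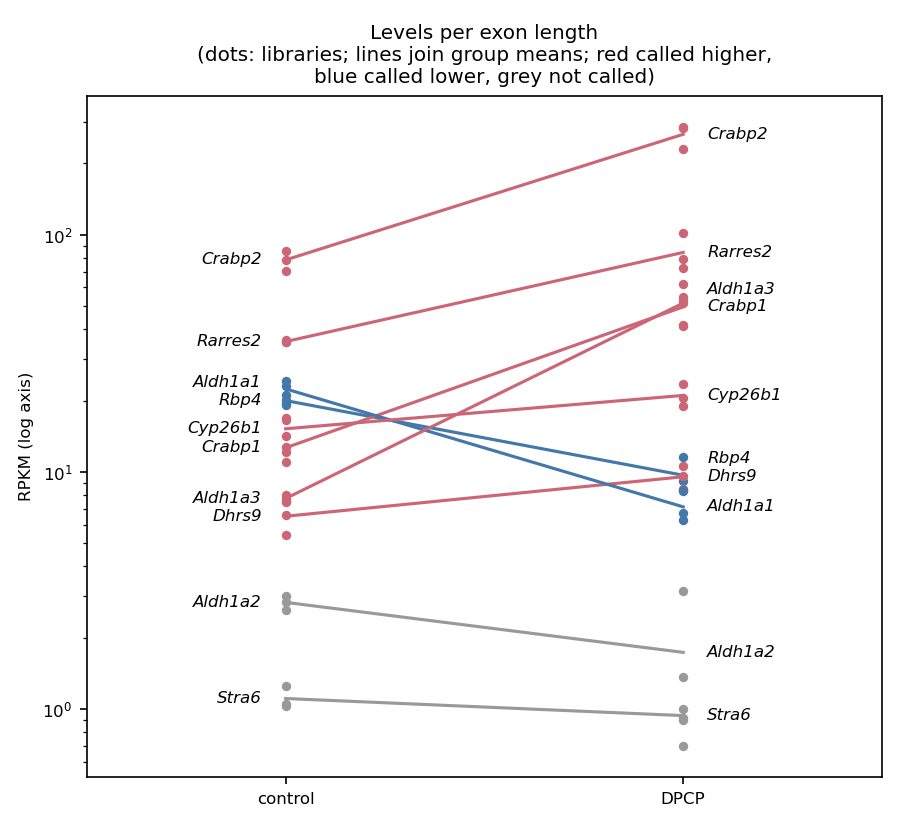
Level per exon length (RPKM, log axis) of the 10 retinoid genes in control and DPCP libraries, with a dot per library and lines joining the group means. Crabp2 stays on top, Aldh1a3 climbs from 7.73 to 51.6, and Aldh1a1 drops from 22.4 to 7.13 RPKM.

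The size of the response varied among the DPCP libraries. In 7 of the 8 called retinoid genes, replicate 1 was the DPCP library nearest to the control mean on the log2 scale, the exception being Dhrs9 with replicate 3. Over all 8417 called genes, replicate 1 was nearest for 56.5%.

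Storage and transport of retinol beyond Rbp4 were covered by a list of 15 genes, of which 12 were tested, 6 rose, 2 fell and 4 were not called, with a median log2 fold change of 0.38. Over all tested genes 22.8% were higher and 23.3% lower. Lrat, which esterifies retinol for storage, was at 2.11, 2.00 and 2.30 CPM in control and 25.99, 31.4 and 40.6 CPM in DPCP libraries, a 15.25-fold rise (log2 3.93 ± 0.19, edgeR adjusted p = 5.598e-06). Rbp2, a cellular retinol binding protein, rose from 18.1 ± 2.88 to 140.9 ± 12.8 CPM, a log2 change of 2.96 ± 0.14. Scarb1, a receptor for lipoproteins that also takes up carotenoids, rose by 0.97 ± 0.12 on the log2 scale. Groups did not overlap for any of these 3 genes.

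Genes that fell in that list were Ces1d, a carboxylesterase that can hydrolyse retinyl esters, and Bco1, which cleaves carotene into retinaldehyde. Ces1d went from 147.8 ± 11.3 to 27.95 ± 11.8 CPM and fell by 2.40 ± 0.26 on the log2 scale. Bco1 went from 3.54 ± 0.953 to 1.01 ± 0.529 CPM and fell by 1.80 ± 0.37.

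Enzymes that interconvert retinol and retinaldehyde, other than Dhrs9, formed a list of 19 genes, of which 16 were tested. In it 1 rose, 6 fell and 9 were not called, against 22.8% higher and 23.3% lower over all tested genes, and the median was -0.36. Adh7, an alcohol dehydrogenase of surface epithelia with high activity on retinol, was at 121.2, 112.0 and 126.7 CPM in control and 38.4, 33.9 and 27.4 CPM in DPCP libraries. With all DPCP libraries lower, Adh7 fell by 1.85 ± 0.13 on the log2 scale (edgeR adjusted p = 2.491e-05). Adh1 fell by 1.06 ± 0.20, Sdr16c5 by 0.72 ± 0.17 and Rdh14 by 0.50 ± 0.12. Rdh16 rose by 1.43 ± 0.33 from a low level, 1.35 ± 0.605 to 3.66 ± 0.859 CPM. Rdh16 shares 381 of 6217 exon bases with a neighbouring pseudogene, and Adh7 and Adh1 overlap antisense genes by 108 and 136 bases, so reads there are uncertain.

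The list of receptors, corepressors and the alternative retinoic acid carrier Fabp5 held 10 genes, all tested. Of these, 3 rose, 3 fell and 4 were not called (median -0.24), where 22.8% of all tested genes were higher and 23.3% lower. The list is too short to set it apart from these shares. Fabp5, which carries fatty acids and retinoic acid to the receptor encoded by Ppard, rose from 501.3 ± 99.4 to 2924 ± 118.8 CPM, 2.54 ± 0.15 on the log2 scale, and Ppard rose by 1.51 ± 0.13. Fabp5 has processed pseudogenes of similar sequence, so its level is uncertain. Rarg, the main retinoic acid receptor of epidermis, was at 232.7, 246.1 and 276.3 CPM in control and 186.3, 140.6 and 176.5 CPM in DPCP libraries, and fell by 0.58 ± 0.12 (edgeR adjusted p = 0.00512). Rxrg fell by 1.18 ± 0.19 from 6.17 ± 0.597 to 2.72 ± 0.493 CPM.

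Rara was called with a small change of 0.35 ± 0.11 (edgeR adjusted p = 0.0257). It lost its call with library totals as the only scaling (adjusted p = 0.0687), without control replicate 3 (0.0934) and without DPCP replicate 2 (0.0969).

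Textbook targets of retinoic acid outside the 10 genes showed no common direction. Of 10 listed and 8 tested genes, 2 rose, 3 fell and 3 were not called (median -0.24), against 22.8% higher and 23.3% lower over all tested genes. Dhrs3, the retinaldehyde reductase induced by retinoic acid, was at 73.0, 87.7 and 71.8 CPM in control and 63.3, 45.6 and 49.9 CPM in DPCP libraries and fell by 0.55 ± 0.14 (edgeR adjusted p = 0.0111). Pdk4, a kinase of pyruvate dehydrogenase, fell by 1.45 ± 0.36, with controls spread from 45.7 to 125.6 CPM. Rarres1 fell by 0.69 ± 0.18 (edgeR adjusted p = 0.0148), a call lost without control replicate 3 (adjusted p = 0.0506).

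**Figure D4:**
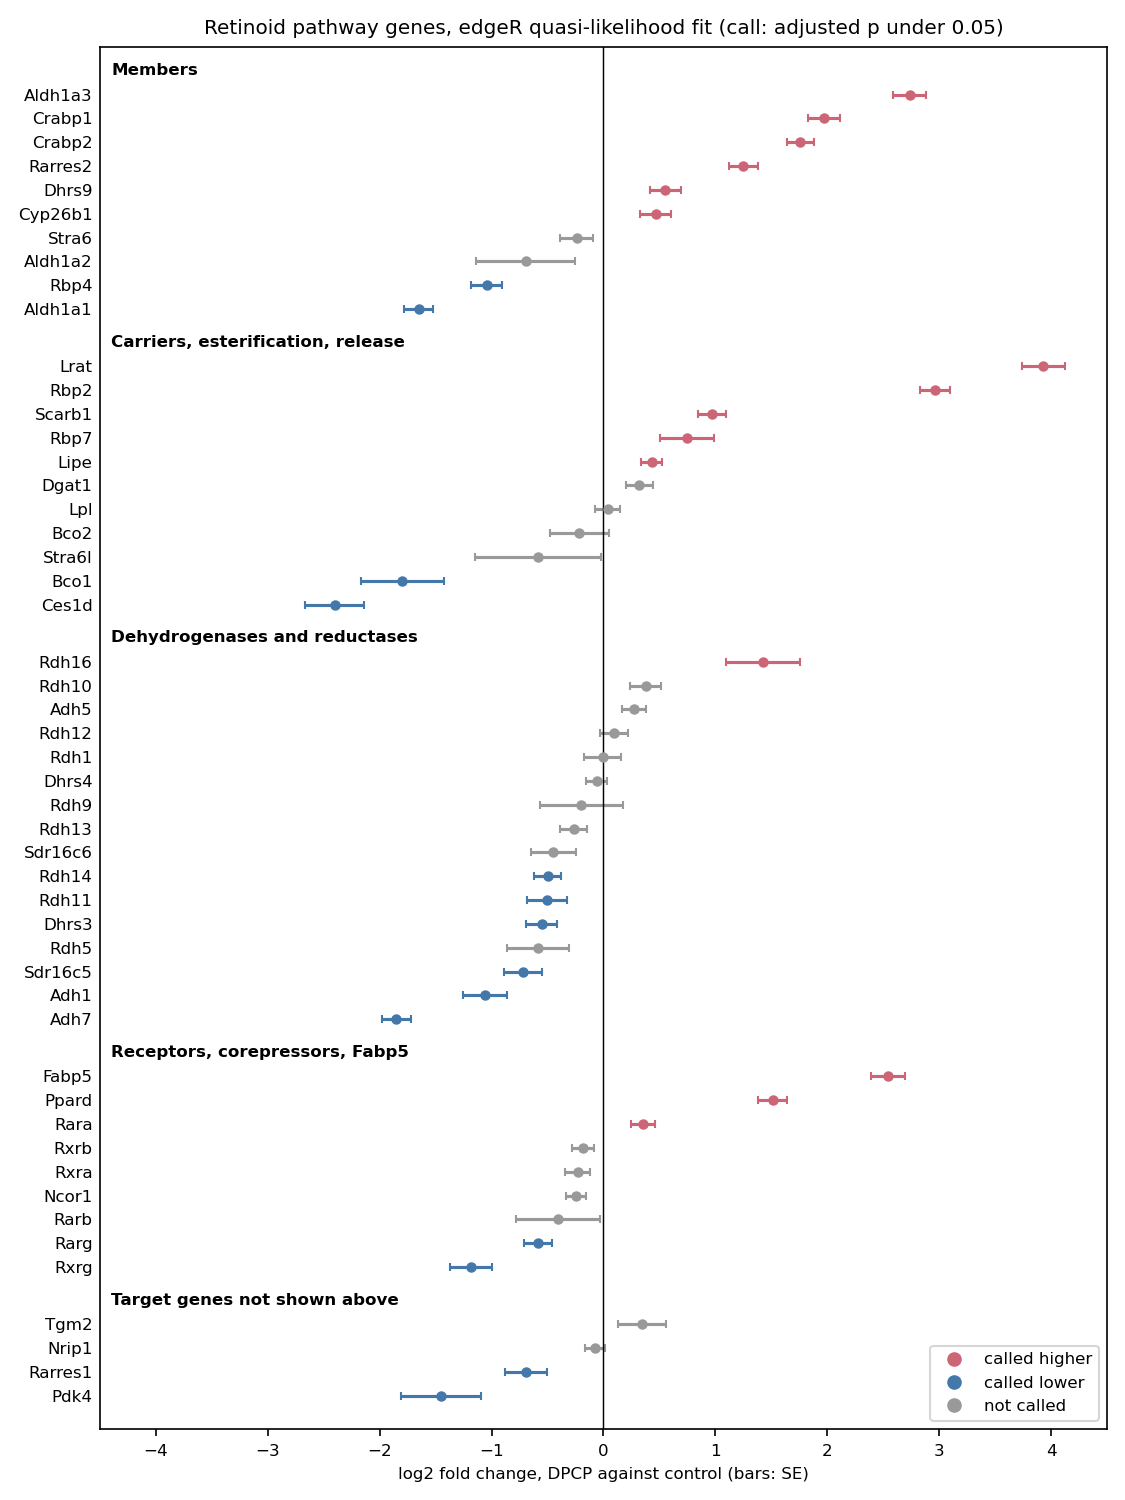
Log2 fold change of DPCP against control (horizontal axis, edgeR fit, bars show the SE) for the 10 retinoid genes and most tested genes of the other retinoid lists, coloured by call. Values run from 3.93 for Lrat to -2.40 for Ces1d, and positive and negative values occur in every list shown.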

How the data were processed

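RNA from 3 control and 3 DPCP skin samples was sequenced in pairs from polyadenylated RNA, per the labels' protocols. The authors deposited unnormalised counts, which featureCounts 1.6.2 produced from Ensembl release 102 (GRCm38), per the file headers. Its recorded command has no strand, pair, multi-mapping or overlap option. Mates therefore count separately and regardless of strand, and ambiguous reads are left out. The exon length per gene, another deposited column, is the union over isoforms, which lowers RPKM of genes with many isoforms. The submitters' processing notes also name Trimmomatic 0.36, HISAT2 2.2.1 and mm10.

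Counts were scaled with TMM and tested with edgeR 4.0.16 in R 4.3.3 (quasi-likelihood, filterByExpr, Benjamini-Hochberg over 18259 genes, threshold 0.05). The procedure was also run on simulated counts. Far fewer genes changed there than were called here, so a shift this broad was not covered. CPM and RPKM use the TMM-scaled totals. Shares were compared with two-sided exact permutation tests. The replicate numbers were not used as a block. Alternatives were RLE, upper-quartile and no scaling factors, no filter, a minimum of 1 CPM, DESeq2 1.42.0, a replicate block and leaving out each library.

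The 10 genes and all gene lists were chosen with earlier results of these data known. Every one of the 10 is described, and from each other retinoid list the called genes with the smallest p are named, up to 4 in each direction. A few genes of these lists are counted but not reported here by name.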

Additional observations from a re-analysis of the deposited data

How the results depend on the processing

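The count of called genes was 8417 and ran from 7016 to 8617 over 13 alternatives, and 8 of the 10 retinoid genes were called in every setting that kept all libraries. Leaving out a library gave 7 to 9 retinoid genes called. None of the 10 changed direction in 130 refitted values, and 8 kept their side of the threshold throughout, Cyp26b1 and Aldh1a2 being the exceptions described above. Among the 43 other retinoid genes tested, 5 that were called lost the call in some alternative and 7 that were not called gained one, and 4 changed sign, none of them called. Library totals alone moved the median log2 fold change of all genes from -0.01 to -0.09. With the replicate number as a block, 8501 genes and 8 retinoid genes were called. Whether the numbers pair the samples cannot be told from so few libraries. The deviations of same-numbered libraries correlated at 0.0455, 0.0265 and 0.112, all positive but small. Control replicate 1 and DPCP replicate 2 correlated best with each other, at 0.0990, and the other libraries with their own number. Exact sign-flip tests within numbers gave 0.25 for the Aldh1a1 and Aldh1a3 shares, the smallest 3 pairs allow, and 0.50 for the Crabp2 share. Depth limits Cyp26a1 and Cyp26c1, which were not tested; for Aldh1a2 the spread between the DPCP libraries is the limit.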

Other observations

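Adh7 and Adh1 belong to a run of alcohol dehydrogenase genes on chromosome 3 (138217760 to 138455499), which was examined after their values had been seen. Of the 6 genes of the run, 5 were tested and 4 fell. Adh7 and Adh1 led to the run, and without them 2 of 3 tested genes fell, too few to set against the 23.3% of all tested genes that were lower. Adh6a went from 21.4 ± 2.94 to 2.34 ± 1.35 CPM (SD, n = 3 each) and fell by 3.17 ± 0.39 on the log2 scale (edgeR adjusted p = 3.663e-04). Adh6b went from 16.5 ± 4.81 to 1.30 ± 0.689 CPM and fell by 3.65 ± 0.40 (edgeR adjusted p = 2.011e-04). Adh5, the formaldehyde-clearing member, had a log2 difference of 0.27 ± 0.10 (edgeR adjusted p = 0.0617), and Adh4 was listed at 0 in all 6 libraries. Reads shared by these similar genes were not counted, so their levels are uncertain.

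The fatty acid binding protein genes, relatives of Fabp5, were also looked at after the fact. Of 9 such genes, 6 were tested, 3 rose and 1 fell. Without Fabp5, which led to the family, 2 of 5 rose and 1 fell, where 22.8% of all tested genes were higher and 23.3% lower. Fabp4, the fat cell and capillary form, rose by 0.74 ± 0.13 on the log2 scale from 374.7 ± 45.5 to 626.1 ± 81.7 CPM (edgeR adjusted p = 0.00202). Fabp12 rose by 1.71 ± 0.48 from 2 to 5 counts a library in control to 13 to 18 in DPCP (edgeR adjusted p = 0.0175). Fabp3, the muscle form, fell by 0.93 ± 0.19 (edgeR adjusted p = 0.00481) beside 4 of 4 skeletal muscle markers that were lower, whose sum ran from 7003 to 9501 CPM in control and 1857 to 3883 CPM in DPCP libraries. The part of muscle content in the Fabp3 value was not tested.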
